A study of Rattus norvegicus with 6 samples.

Results

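The genes described are 6 that make, store, recapture, break down or sense serotonin: Ddc, Slc18a2, Slc6a4, Maoa, Htr1a and Htr2a. They were picked by their Ensembl identifiers, and all 6 were found among the 22976 genes listed. Expression had been measured by poly-A RNA sequencing of the rostral ventromedial medulla (RVM) of rats. The CFA group (3 libraries) had 50 µL of CFA (Freund's complete adjuvant), which inflames tissue through killed mycobacteria suspended in oil, injected into the temporomandibular joint (the jaw joint) on both sides. The saline group (3 libraries) had 50 µL of saline injected in the same way, and the tissue is labelled day 3 in both groups. The sources used here do not give strain, sex or age, nor whether each library is 1 animal or a pool. The p-values therefore reflect differences among these libraries only, and those may be technical.

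Serotonin is made from tryptophan in neurons of the brainstem raphe nuclei, of which the raphe magnus lies within the RVM. Axons from this region descend to the spinal dorsal horn and the trigeminal nuclei, where serotonin can raise or lower the passage of pain signals, depending on the receptor it meets. A serotonergic neuron decarboxylates the precursor, loads serotonin into vesicles and recaptures it after release, and monoamine oxidase breaks down what is not stored again.

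Values are FPKM, the number of fragments scaled both to the length of the gene and to the total of the library. This scaling does not correct for libraries that differ in which genes make up their RNA. The libraries held 27534174 to 44977905 fragments, recovered from the spacing of the FPKM values. The totals were 38260153, 27534174 and 32305437 in CFA replicates 1, 2 and 3, and 44977905, 34440104 and 38212928 in saline replicates 1, 2 and 3. Genes at 1 FPKM or more numbered 13678, 13669 and 13623 in CFA and 13434, 13382 and 13394 in saline, so every CFA library had more. Reads and read pairs cannot be told apart in the fragment numbers, and a divisor common to a gene's length and all its fragment numbers would go unseen. Fragment numbers, Poisson intervals and multiples of counting noise below hold within these limits. The file pairs no identifier with a name, and 0 identifiers matched the annotation table used here, so the names of the 6 genes rest on the list of identifiers they came with. For the same reason markers of serotonergic neurons other than these genes, of other cell types and of the dissected region are not analysed here. The dissected tissue is bulk, so more cells of a type and more RNA per cell cannot be told apart. The comparison of CFA with saline was fitted over 13566 genes, those averaging 1 FPKM or more over the 6 libraries, and called 18.8% of them at an adjusted p under 0.05 (limma on log2(FPKM + 1), Benjamini-Hochberg adjustment over all genes fitted). The share that passed as higher in CFA was 11.3%, and the share that passed as lower was 7.48%. With quantile scaling the balance turned, to 1197 genes higher and 1391 lower in place of 1530 and 1015.

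Transcripts of the uptake transporter Slc6a4 and of the vesicle transporter Slc18a2 were called higher in the RVM of CFA rats, by 21.4% and 10.1% of their saline means. The call of Slc18a2 ended in 12 of 18 alternative settings. Transcripts of the synthetic enzyme Ddc lay higher in all 3 CFA libraries than in any saline library, but Ddc did not pass the adjusted threshold. Maoa differed by 0.217% between the group means, and neither receptor gene passed the test. Thus 2 of 6 genes were called, both higher in CFA, beside a background of 18.8% of genes called in either direction. The 2 calls make up 33.3% of so few genes that nothing particular to them is read from the share, and the count moved between 0 and 3 over the alternative settings. The median log2 change of the 6 genes was 0.067, against 0.012 over all genes tested.

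**Figure D1:**
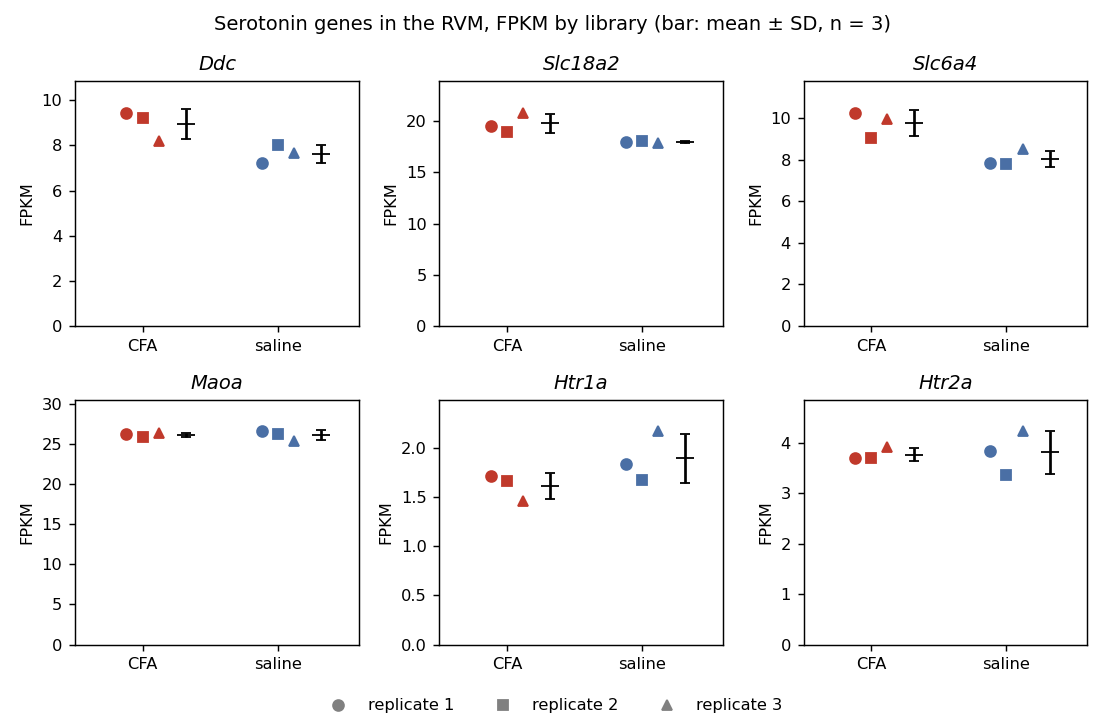
FPKM of the 6 serotonin genes (vertical axes, each starting at 0) in the 3 CFA and the 3 saline libraries. Symbols are replicates, and bars are the mean ± SD of 3 libraries. Ddc, Slc18a2 and Slc6a4 lay higher in every CFA library than in any saline library, as did 21.2% of all genes tested. The groups overlapped for Maoa, Htr1a and Htr2a.

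All 6 genes passed the filter of a mean of at least 1 FPKM, and their levels kept nearly the same order in every library. Maoa was the most abundant and Slc18a2 came next in all 6 libraries, while Htr1a was the lowest and Htr2a the next lowest in all 6. Slc6a4 and Ddc lay so close together that their order changed between libraries. Slc6a4 was above Ddc in replicates 1 and 3 of both groups and below it in replicate 2 of both groups. By mean FPKM over the 6 libraries, Maoa stood above 83.0% of the genes tested, Slc18a2 above 76.1%, Slc6a4 above 54.5%, Ddc above 52.2%, Htr2a above 28.9% and Htr1a above 10.8%. The mRNA of the enzyme that many cell types carry was thus the most abundant of the 6, and those of the receptors were the least.

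Ddc (ENSRNOG00000004327) encodes aromatic L-amino acid decarboxylase, which forms serotonin from its hydroxylated precursor and also forms dopamine from L-DOPA. Its level was 9.44, 9.21 and 8.18 FPKM in CFA replicates 1, 2 and 3, against 7.21, 8.02 and 7.66 FPKM in saline replicates 1, 2 and 3. The groups did not overlap, but the lowest CFA library, replicate 3, lay only 0.164 FPKM above the highest saline library, replicate 2. Ddc averaged 8.95 ± 0.668 FPKM in CFA and 7.63 ± 0.408 FPKM in saline (SD, n = 3 each). This was a log2 change of 0.20 (SE 0.0617, 95% interval 0.061 to 0.35), with an unadjusted p of 0.0113 and an adjusted p of 0.0569 (limma). The values rested on 4758 fragments in CFA and 4833 in saline. Relative to counting noise, Ddc varied between libraries of a group more than the other 5 genes did, with a variance of 6.87 times that noise, against 1.00 to 3.41 times for the others and a median of 2.41 over the genes tested. Its coefficient of variation, 7.47% in CFA and 5.35% in saline, was below that of Htr1a, at 8.07% in CFA and 13.3% in saline. Without CFA replicate 3 the log2 change of Ddc was 0.26 and it passed (adjusted p = 0.0249, limma). With any other library left out it did not pass, with an adjusted p of 0.0689 to 0.162 (limma) and a log2 change of 0.17 to 0.24.

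Slc18a2 (ENSRNOG00000008890) encodes the vesicular monoamine transporter VMAT2, which loads serotonin, and in other neurons dopamine, noradrenaline or histamine, into synaptic vesicles. It stood at 19.6, 19.0 and 20.8 FPKM in CFA replicates 1, 2 and 3, and at 18.0, 18.0 and 17.9 FPKM in saline replicates 1, 2 and 3. The saline libraries were nearly level, and all 3 CFA libraries lay above them, by 0.942 FPKM or more. The exact Poisson 95% interval ran from 18.0 to 19.9 FPKM in CFA replicate 2 and from 17.2 to 18.9 FPKM in saline replicate 2, so these overlapped. The saline values lay closer together than the width of these intervals, so their SD understates even counting error. Slc18a2 averaged 19.8 ± 0.929 FPKM in CFA and 18.0 ± 0.0911 FPKM in saline (SD, n = 3 each). The log2 change was 0.13 (SE 0.0377, 95% interval 0.044 to 0.22), and the adjusted p of 0.0481 was just under the threshold (limma, Benjamini-Hochberg). This call ended in 12 of 18 alternatives, with an adjusted p of up to 0.124. They included each library left out except CFA replicate 2. The log2 change stayed between 0.096 (without CFA replicate 3) and 0.16 (without CFA replicate 2).

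Slc6a4 (ENSRNOG00000003476) encodes the serotonin transporter SERT, which takes released serotonin back into the neuron and is the target of the selective reuptake inhibitors. Among the 6 genes it is the one whose expression in the brain is most closely tied to serotonergic neurons. Its level was 10.2, 9.04 and 9.98 FPKM in CFA replicates 1, 2 and 3, against 7.83, 7.79 and 8.49 FPKM in saline replicates 1, 2 and 3. Every CFA library was higher than every saline library, with a gap of 0.546 FPKM between CFA replicate 2 and saline replicate 3. Slc6a4 averaged 9.75 ± 0.635 FPKM in CFA and 8.04 ± 0.395 FPKM in saline (SD, n = 3 each), on 2152 and 2111 fragments. The log2 change was 0.25 (SE 0.0567, 95% interval 0.12 to 0.38, adjusted p = 0.0195, limma with Benjamini-Hochberg adjustment), the largest of the 6. It was larger than the change of 91.1% of the genes tested, and 1211 genes had a higher fitted change. Its place above Ddc was not stable. Ddc had the larger log2 change without CFA replicate 3 (0.260 against 0.235) and without saline replicate 2 (0.236 against 0.230). The call of Slc6a4 held in 14 of 18 alternatives, among them every scaling and voom on fragments. It ended when one of 4 libraries was left out. The adjusted p (limma) was then 0.0637 without CFA replicate 1, 0.0631 without CFA replicate 3, 0.0679 without saline replicate 1 and 0.0653 without saline replicate 2.

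The 3 genes whose CFA libraries all lay above the saline libraries stand beside a background of 21.2% of tested genes with that pattern. Serotonergic neurons use Ddc, Slc18a2 and Slc6a4, and all 3 were read from the same libraries, so they cannot be counted as independent of each other. Which cells their transcripts came from was not tested. At an unadjusted p under 0.05, 3 of 6 passed, all higher, where 18.3% of the genes tested did so as higher in CFA.

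**Figure D2:**
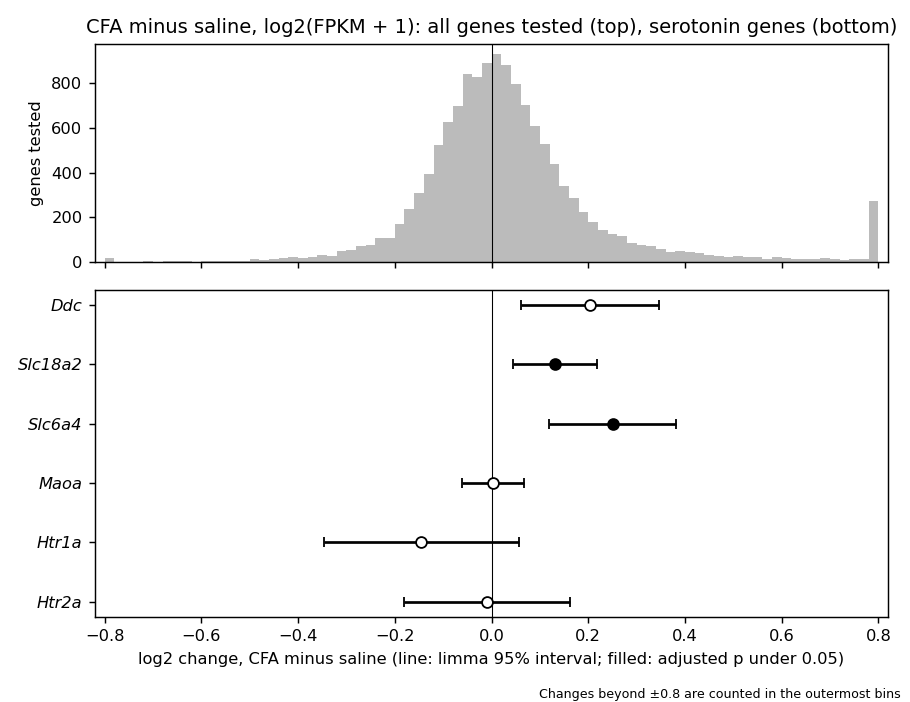
Log2 change of FPKM + 1, CFA minus saline, for the 13566 genes tested (top, number of genes in bins of the horizontal axis) and for the 6 serotonin genes (bottom, with limma's 95% intervals, filled where the adjusted p was under 0.05). The intervals of Slc6a4, Slc18a2 and Ddc lie above 0, and those of Maoa, Htr1a and Htr2a include 0.

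Maoa (ENSRNOG00000002848) encodes monoamine oxidase A, a mitochondrial enzyme that deaminates serotonin and noradrenaline and is found in many cell types. It was measured at 26.2, 25.8 and 26.3 FPKM in CFA replicates 1, 2 and 3, and at 26.6, 26.3 and 25.4 FPKM in saline replicates 1, 2 and 3. The groups overlapped, and the saline libraries spanned the CFA range. Maoa averaged 26.1 ± 0.271 FPKM in CFA and 26.1 ± 0.622 FPKM in saline (SD, n = 3 each), on 10962 and 13116 fragments. The log2 change was 0.0032 (SE 0.0280, adjusted p = 0.954, limma). Its 95% interval of -0.062 to 0.068 corresponds to a ratio of FPKM + 1 between 0.958 and 1.05, so a change of the size of Slc6a4's fitted value lies outside it.

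Htr1a (ENSRNOG00000010254) encodes a receptor coupled to inhibitory G proteins. It sits on serotonergic neurons themselves, where it slows their firing, and on other neurons that serotonin reaches. Its level was 1.71, 1.66 and 1.46 FPKM in CFA replicates 1, 2 and 3, against 1.84, 1.67 and 2.17 FPKM in saline replicates 1, 2 and 3. The groups overlapped narrowly, since CFA replicate 1 was above saline replicate 2, and the other CFA libraries were below all saline libraries. Htr1a averaged 1.61 ± 0.130 FPKM in CFA and 1.89 ± 0.252 FPKM in saline (SD, n = 3 each). The log2 change was -0.14 (SE 0.0872, 95% interval -0.35 to 0.057, adjusted p = 0.297, limma), and it passed in none of the 17 alternatives in which it was tested. With a pseudocount of 0.01 FPKM, which compresses such low values less, the log2 change was -0.23 (adjusted p = 0.305, limma). These values rested on 83, 58 and 60 fragments in the CFA libraries and on 105, 73 and 105 in the saline libraries. The exact Poisson 95% interval ran from 1.12 to 1.88 FPKM in CFA replicate 3 and from 1.77 to 2.62 FPKM in saline replicate 3, and it covers counting error only.

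Htr2a (ENSRNOG00000010063) encodes a receptor coupled to Gq proteins that excites the cells that carry it. It was measured at 3.69, 3.69 and 3.92 FPKM in CFA replicates 1, 2 and 3, and at 3.84, 3.37 and 4.23 FPKM in saline replicates 1, 2 and 3. The saline libraries lay on both sides of all 3 CFA libraries. Htr2a averaged 3.77 ± 0.128 FPKM in CFA and 3.81 ± 0.429 FPKM in saline (SD, n = 3 each), on 1341 and 1633 fragments. The log2 change was -0.0092 (SE 0.0743, adjusted p = 0.951, limma). Its 95% interval of -0.18 to 0.16 includes a rise as large as that of Slc18a2.

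Ratios of FPKM within a library do not change when all genes of the library are multiplied by the same factor. They set the level of one gene against that of another. With 3 libraries against 3, the exact permutation test cannot give a two-sided p under 0.1. It therefore cannot decide whether the genes moved by the same amount. Slc6a4 stood at 0.524, 0.476 and 0.480 of the FPKM of Slc18a2 in CFA replicates 1, 2 and 3, against 0.435, 0.432 and 0.476 in saline replicates 1, 2 and 3. The groups did not overlap, although CFA replicate 2 and saline replicate 3 nearly met. The mean log2 ratio was -1.02 ± 0.0761 in CFA and -1.16 ± 0.0773 in saline (SD, n = 3 each). The difference of 0.14 had p = 0.1 (exact permutation test, two-sided), the smallest p the design allows. With a pseudocount of 1 FPKM the difference was 0.12 and p was 0.2 (exact permutation test), so the separation of the groups depended on that setting. Ddc stood at 0.482, 0.486 and 0.394 of Slc18a2 in CFA replicates 1, 2 and 3, against 0.400, 0.445 and 0.429 in saline replicates 1, 2 and 3. Here the groups overlapped, CFA replicate 3 being the lowest of the 6 libraries, and the difference in mean log2 ratio of 0.090 was smaller than the SD of 0.172 in CFA (p = 0.5, exact permutation test, two-sided).

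Another pair of ratios was chosen after the values of the 6 genes had been seen. Htr1a stood at 0.167, 0.184 and 0.147 of Slc6a4 in CFA replicates 1, 2 and 3, against 0.235, 0.215 and 0.255 in saline replicates 1, 2 and 3. The groups did not overlap, and the mean log2 ratio was -2.60 ± 0.163 in CFA and -2.09 ± 0.125 in saline (SD, n = 3 each). Slc6a4 stood at 0.390, 0.350 and 0.379 of Maoa in CFA replicates 1, 2 and 3, against 0.295, 0.296 and 0.335 in saline replicates 1, 2 and 3. These groups did not overlap either, with a difference in mean log2 ratio of 0.28. Both ratios had p = 0.1 (exact permutation test, two-sided), and 3 of the 4 ratios computed had an adjusted p of 0.133 (Benjamini-Hochberg over the 4 exact p-values). This pair of ratios was picked on the values, so their p-values are no test. Both contain Slc6a4, the gene of the largest rise in the reported fit. The adjustment also leaves out the pairs of genes that were not computed.

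**Figure D3:**
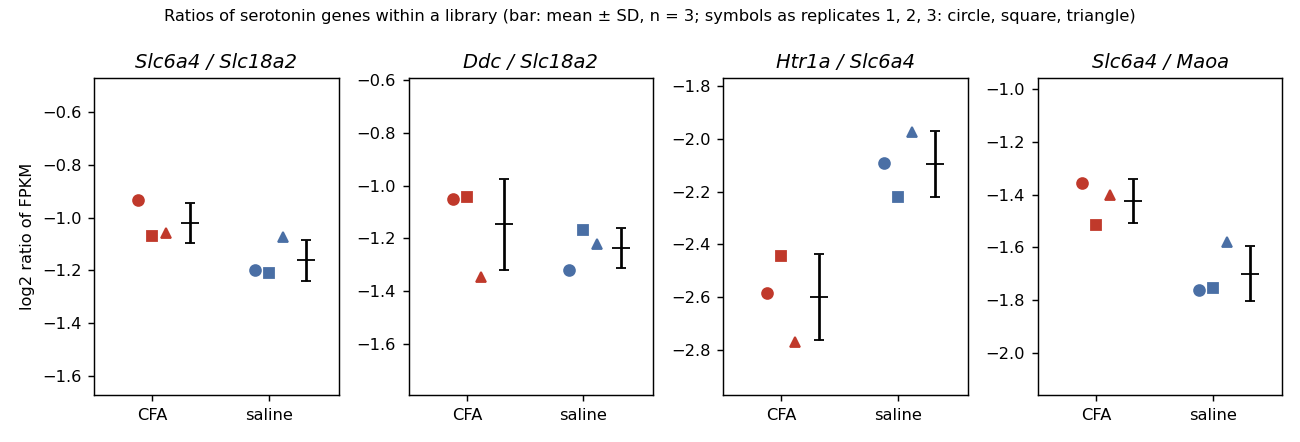
Log2 ratios of FPKM within each library for 4 pairs of serotonin genes, in the 3 CFA and the 3 saline libraries. Symbols are replicates, bars are the mean ± SD of 3 libraries, and each vertical axis spans the same number of log2 units. Only the ratio of Ddc to Slc18a2 overlaps between the groups. The other ratios all contain Slc6a4, whose own groups did not overlap, so they are not separate findings. The share of all gene pairs that separate in this way was not computed.

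Start-site sequences are shown for Slc18a2, called higher in CFA, and for Ddc, higher in every CFA library but not called. Beside them stands Maoa, whose groups overlapped. RefSeq promoters of build GRCr8 were held for 3 of the 6 genes, Ddc (3 starts), Slc18a2 and Maoa. The expression data do not tell which Ddc start was used. The 250 bases before each start are printed in the direction of transcription, and capitals mark matches on either strand to CRE (TGACGTCA), bound by CREB factors, the GC box (GGGCGG), bound by Sp factors, the ETS core (CCGGAA), or a GATA core (AGATAA). The motifs were chosen after the sequences had been seen, and no matches overlapped each other.
Slc18a2, chr1:268399771-268400020, plus strand: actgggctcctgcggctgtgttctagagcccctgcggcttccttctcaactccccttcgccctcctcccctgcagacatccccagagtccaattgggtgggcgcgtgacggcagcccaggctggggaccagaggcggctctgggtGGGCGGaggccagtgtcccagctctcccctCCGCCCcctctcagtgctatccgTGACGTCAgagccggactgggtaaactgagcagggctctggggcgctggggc
Ddc, first start, chr14:90682784-90683033, minus strand: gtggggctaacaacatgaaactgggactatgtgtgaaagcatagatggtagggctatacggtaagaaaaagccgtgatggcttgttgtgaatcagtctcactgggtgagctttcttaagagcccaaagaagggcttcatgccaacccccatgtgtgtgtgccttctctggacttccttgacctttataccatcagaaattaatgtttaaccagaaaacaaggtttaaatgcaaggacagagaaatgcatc
Ddc, second start, chr14:90675627-90675876, minus strand: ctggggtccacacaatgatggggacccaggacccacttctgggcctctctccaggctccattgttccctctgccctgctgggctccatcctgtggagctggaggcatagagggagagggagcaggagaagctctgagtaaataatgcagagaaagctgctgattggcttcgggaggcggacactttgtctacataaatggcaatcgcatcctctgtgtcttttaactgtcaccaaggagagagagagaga
Ddc, last start, chr14:90665821-90666070, minus strand: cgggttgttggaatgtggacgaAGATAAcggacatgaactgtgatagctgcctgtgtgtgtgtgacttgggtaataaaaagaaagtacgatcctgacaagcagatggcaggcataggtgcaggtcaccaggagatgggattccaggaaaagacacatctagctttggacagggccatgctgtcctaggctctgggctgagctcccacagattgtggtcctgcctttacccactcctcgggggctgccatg
Maoa, chrX:8681373-8681622, minus strand: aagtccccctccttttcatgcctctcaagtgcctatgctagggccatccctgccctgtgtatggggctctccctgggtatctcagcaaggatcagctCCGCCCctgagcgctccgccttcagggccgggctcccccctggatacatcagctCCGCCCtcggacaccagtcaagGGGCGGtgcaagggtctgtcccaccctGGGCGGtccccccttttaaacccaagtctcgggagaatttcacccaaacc

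The Slc18a2 window held 1 CRE and 2 GC boxes, and the Maoa window held 4 GC boxes. The last Ddc start held 1 GATA core, and the other Ddc windows held none of the 4 motifs. No window of the 3 genes held the ETS core. Among the 33469 start windows of the same length, 1.59% held the CRE, 30.5% a GC box, 12.6% the ETS core and 10.3% the GATA core. The motifs were chosen after the sequences had been seen, so these shares do not test any match. The share of G and C was 68.0% before the Slc18a2 start and 62.4% before the Maoa start, against a median of 51.2% over all windows. Before the Ddc starts it was 44.0%, 54.4% and 52.8%. The windows of Slc18a2 and Maoa thus were both GC-rich and held GC boxes, and a link of any motif to the changes in CFA was not tested.

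**Figure D4:**
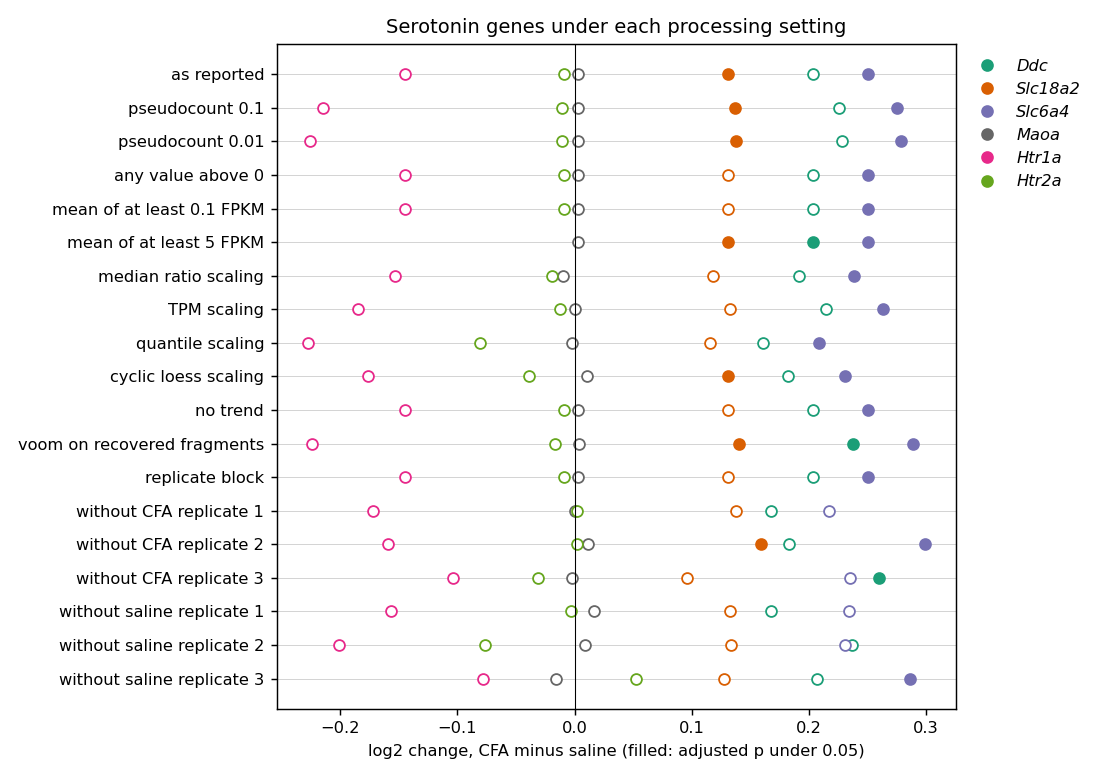
Log2 change of each serotonin gene (horizontal axis, CFA minus saline) under each processing setting (vertical axis, with the reported setting on top). Filled points had an adjusted p under 0.05 (limma). Slc6a4 stayed between 0.21 and 0.30, while Maoa and Htr2a lay on both sides of 0.

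Across the settings, the direction of Ddc, Slc18a2, Slc6a4 and Htr1a was the same throughout. Ddc ranged from 0.16 with quantile scaling to 0.26 without CFA replicate 3, and passed in 3 of 18 alternatives. With voom on recovered fragments, 3 of 6 genes passed, Slc6a4 (adjusted p = 0.00313), Slc18a2 (adjusted p = 0.0169) and Ddc (adjusted p = 0.000935). That setting called more genes of every kind, 3479 of 13566, against 2545 in the reported fit. Nothing particular to the serotonin genes is read from its count. Htr1a ranged from -0.23 with quantile scaling to -0.078 without saline replicate 3, which had the highest Htr1a level of the 6 libraries.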

How the data were processed

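The deposited file holds FPKM computed by the authors, with a column for each of the 3 CFA and 3 saline libraries. The submitters' processing notes name HISAT2 2, StringTie 2, fastp 0.21.0, DESeq2 1.30.1 and build mRatBN7.2 without saying what each did. The sources used here do not give the counter, the annotation or the treatment of shared reads and strand. Sample titles gave the groups and the replicate numbers.

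FPKM steps gave whole fragments for 22967 genes (within 0.0001 fragments) and the library totals. Genes averaging 1 FPKM or more were fitted as log2(FPKM + 1) with limma 3.58.1 in R 4.3.3 (lmFit, eBayes with a mean-variance trend), CFA against saline, two-sided, with Benjamini-Hochberg adjustment over 13566 genes. This scale understates the change of low genes. Alternatives covered the pseudocount, filter, scaling, moderation, voom on fragments, a replicate block and each library left out. Scripts were tested on simulated data. Other work used Python 3.11.15.

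The members and lists were chosen with earlier results of these data known. All 6 members were named, and the lists of other serotonin genes and cell markers were not analysed, since identifiers had no names. The rule also named the 2 genes nearest each member in profile, of which those of Slc6a4 are given.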

Additional observations from a re-analysis of the deposited data

How the results depend on the processing

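The count of genes called, 2545, lay between 1743 and 3479 over 18 alternatives. The count of the 6 serotonin genes called, 2, was 1 with any value above 0, with a mean of at least 0.1 FPKM, with median ratio, TPM or quantile scaling and without a variance trend, and 0 to 2 with each library left out. Where the filter, scaling or moderation lowered the count, Slc18a2 was the gene lost, and the cause was not tested. Each fit without a library had fewer libraries. With the replicate number as a block the count was 1, Slc6a4 (adjusted p = 0.0272, limma). Deviations from the group means were nearly unrelated between same-numbered libraries (correlations across genes of -0.021, 0.021 and 0.023), so the numbers were not taken as pairs. The block left the ratio differences at 0.14 for Slc6a4 to Slc18a2 and 0.090 for Ddc to Slc18a2. Left-out libraries gave 0.097 to 0.19 and 0.038 to 0.19.

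Maoa, at 0.0032, turned to -0.0096 with median ratio scaling and -0.0023 with quantile scaling, and ranged from -0.016 to 0.016 with a library left out. Htr2a, at -0.0092, ranged from -0.077 to 0.053 with a library left out. Htr1a had the fewest fragments, 58 to 105 per library. Fragments without molecular identifiers are not independent molecules, so intervals from them cover counting error only.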

Other observations

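Other genes of the table had profiles close to those of the serotonin genes, measured as the root mean square difference of the 6 values of log2(FPKM + 1), each centred on its own mean, and given as a description over 6 libraries in 2 groups. Nearest to Slc6a4 was ENSRNOG00000032908 (difference 0.0242), with 10.8 ± 0.515 FPKM in CFA and 9.03 ± 0.308 FPKM in saline (SD, n = 3 each). Next came ENSRNOG00000049075 (0.0270), with 126.0 ± 5.79 FPKM in CFA and 107.2 ± 2.88 FPKM in saline. Neither identifier has a name in the sources used here. Among the other serotonin genes, Slc18a2 was nearest to Slc6a4 (0.0822, rank 681 of 13565 genes), followed by Ddc (rank 1482), Maoa (0.142, rank 5171), Htr2a (0.146, rank 5682) and Htr1a (0.213, rank 11204). Seen from Slc18a2, Maoa was nearer (0.0723, rank 2639) than Slc6a4 (0.0822, rank 3785). Ddc came at rank 6749 from Slc18a2 (0.1058), about the median difference over all genes (0.1061). Seen from Ddc, Slc6a4 came at rank 1984 and Slc18a2 at rank 2514. This difference counts the size of a change as well as its pattern, and it is the same from either gene. Only the ranks of the 3 genes thus depended on the gene they were taken from. Htr1a and Htr2a lay 0.0949 apart, the nearest serotonin gene to Htr1a being Htr2a.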
